A study of Mus musculus with 28 samples.

Results

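The common gamma-chain cytokine system was followed here through 10 genes, chosen by name: the ligands Il7, Il15 and Tslp, and the receptor chains Il7r, Il2rg, Il2rb, Il2ra, Il15ra, Il4ra and Il21r. Of these, 9 had a row that carried the symbol and Tslp had none, among 43143 rows of which 18509 carried a symbol. A further 9 rows belonged to member genes but carried no symbol, namely 6 of Il15ra, 2 of Il2rg and 1 of Il4ra. In this family the cytokines bind receptors that share the gamma chain encoded by Il2rg and signal through the kinases JAK1 and JAK3 and STAT transcription factors. IL-7 is made mainly by stromal and epithelial cells and supports the survival of lymphocytes, which carry its receptor IL-7R. IL-15 is handed by IL-15R alpha on one cell to IL-2R beta and the gamma chain on another and supports NK cells and memory CD8 T cells, while TSLP shares the IL-7R chain without using the gamma chain.

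The libraries were whole-transcriptome RNA-seq of 3LL cells, a line from the Lewis lung carcinoma of C57BL/6 mice, grown in culture or as tumors. KEAP1 tags the transcription factor NRF2 for destruction, so that its loss leaves NRF2 active. WT was the parental line, KEAP1-KO was cloned from it from a single colony after deletion of Keap1, and DKO was cloned likewise from KEAP1-KO cells after deletion of Nrf2 (Nfe2l2), while which and how many of the cloned lines of a genotype were sequenced is not given in the sources used here. There were 12 cell libraries, 4 of each genotype. The 16 tumors were taken on day 10 after subcutaneous injection into male albino C57BL/6 mice aged 6 weeks, which have an intact immune system. In Experiment A mice carried WT cells in the left flank and KEAP1-KO cells in the right, and in Experiment B KEAP1-KO cells in the left and DKO cells in the right, with 4 tumors in each of these 4 groups. Genotype and flank therefore changed together, and any comparison across the experiments also changed the experiment. Whether same-numbered tumors came from 1 mouse was not stated, and nothing in the labels says whether the cell libraries came from separate cultures, so the p-values measure the spread between these samples.

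The libraries held 4222365 to 7524264 reads, 4222365 to 6048425 in tumors and 5808998 to 7524264 in cells, and 13.95% to 23.47% of rows had 0 reads. Levels are given as log2(normalized count + 4), the deposited scale, on which 2.0 means that no read was counted, and reads are given as recovered from those values. The Keap1 row fell in KEAP1-KO cells and tumors, by 1.86 and 1.43 on the log2 scale (limma, Benjamini-Hochberg adjusted p = 2.20e-09 and 1.83e-06). The row that carried the Nfe2l2 symbol was a processed transcript that did not separate DKO from KEAP1-KO samples (differences of 0.22 in cells and -0.00 in tumors, adjusted p = 0.65 and 1, limma). The NRF2 target Nqo1 differed by 5.55 between KEAP1-KO and WT tumors and by -6.30 between DKO and KEAP1-KO tumors on the log2 scale. Differences are called where the adjusted p over all tested rows was under 0.05 by limma, and intervals are 95% intervals.

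The Il7 row was not the whole gene but 1 transcript, Il7-202 (ENSMUST00000191681), annotated as a processed transcript with no coding sequence. Il7 lies on the minus strand of chr3:7569994-7613760 (GRCm38) and has 5 annotated transcripts, 4 of them coding. Il7-202 has 1402 bases in 7 exons, and its exons 5 and 6 are shared by all 4 coding transcripts. Its exon 4, of 116 bases at chr3:7593620-7593735, is in 0 of the 4 coding transcripts, and is shown because it is an internal exon that the coding messenger RNAs lack. Its first and last exons, of 571 and 14 bases, also end differently from those of the coding transcripts. The capitals mark a stop codon in frame with the annotated start codon in exon 3. The sequence is read 5′ to 3′ on the minus strand.
Il7-202 exon 4: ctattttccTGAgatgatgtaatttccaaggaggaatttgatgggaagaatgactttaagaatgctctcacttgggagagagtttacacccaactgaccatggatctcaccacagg
Reading from that start codon, Il7-202 holds 10 codons before this stop, against 154 codons in the longest coding transcript. No row of the coding Il7 transcripts was found, so the values below are those of Il7-202 as the authors' quantification assigned reads to it. How reads of the shared exons were divided among the transcripts is not visible in the table.

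Il7 was high in every KEAP1-KO library, whether from culture or from tumors, and low in every WT and DKO library. It had been singled out by the study for its pattern in the cells, so its levels in cells are a description without a test. By ELISA the study did not detect the cytokine itself in medium from cultured cells of any genotype. The levels given here are of RNA only. The WT cells stood at 2.36, 2.0, 2.62 and 2.34, with 0 to 2 reads per library. In KEAP1-KO cells the levels were 6.41, 6.68, 6.61 and 6.46, or 87 to 113 reads. In DKO cells they were 3.15, 2.84, 3.03 and 2.71, or 3 to 5 reads. The 3 genotypes did not overlap in culture, with DKO cells just above WT cells. Summed over libraries and normalized, the reads of KEAP1-KO cells were 81.7 times those of WT cells (95% exact interval 31.7 to 301.4, counting error only, 393 against 4 reads) and 24.4 times those of DKO cells (14.6 to 44.1, 393 against 15 reads). On the log2 scale KEAP1-KO cells were 4.21 ± 0.20 (SE) above WT cells, and DKO cells were 0.60 above WT cells (0.17 to 1.04). These differences are on the scale with 4 added, which understates changes from a group near 0 reads, and were 5.54 and 1.25 with a pseudocount of 1.

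The tumors showed the same order, although the study had shown Il7 for these tumors too. The WT tumors of Experiment A had Il7 at 2.92, 2.78, 2.0 and 2.0, with 4, 3, 0 and 0 reads. The KEAP1-KO tumors grown in the same experiment had 6.88, 6.71, 7.07 and 6.52, with 87 to 135 reads. All 4 KEAP1-KO tumors lay far above all 4 WT tumors, by 4.37 ± 0.25 (SE) on the log2 scale (adjusted p = 1.68e-08, limma), and the summed normalized reads differed 68.5-fold (33.0 to 171.6, 414 against 7 reads). In Experiment B the KEAP1-KO tumors had 6.58, 6.89, 7.05 and 6.87, and the DKO tumors 3.79, 3.73, 3.78 and 2.89, with 9, 9, 12 and 4 reads. These groups were again apart, DKO tumors being lower by 3.30 ± 0.25 (SE, adjusted p = 5.78e-07, limma), and the fourth DKO tumor was lower than the other 3. The summed reads differed 14.1-fold (10 to 20.7, 442 against 34 reads).

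Ordered by mean level, the groups ran from WT cells (2.33 ± 0.26, SD, n = 4) and WT tumors (2.43 ± 0.50) through DKO cells (2.93 ± 0.20) and DKO tumors (3.55 ± 0.44) to KEAP1-KO cells (6.54 ± 0.13) and the KEAP1-KO tumors of Experiments A (6.79 ± 0.24) and B (6.85 ± 0.20). Neighbours in this order overlapped, except DKO tumors and KEAP1-KO cells. WT cells and tumors differed by 0.09 (interval -0.37 to 0.55), and KEAP1-KO cells and tumors by 0.28 (-0.12 to 0.68, adjusted p = 0.256, limma). The KEAP1-KO tumors of the 2 experiments differed by 0.06 (-0.48 to 0.60, adjusted p = 0.984, limma). DKO tumors were 1.12 ± 0.25 (SE) above WT tumors (adjusted p = 0.00892, limma), although the lowest DKO tumor lay below the highest WT tumor and the comparison also changes experiment and flank. DKO tumors were called higher than DKO cells by 0.61 ± 0.22 (adjusted p = 0.0286, limma), a call lost under 3 of 6 other settings and in 5 of 8 fits that left out a library (adjusted p up to 0.446). Over all 28 libraries, the 5 rows with the highest Pearson correlation to Il7 among 16564 were Clmn (r = 0.979), Adh7 (0.961), Ugt1a7c (0.954), Gabrb1 (0.951) and Aldh3a1 (0.951). These points share groups of 4 libraries, so the correlations mostly restate the group levels. The retinol-oxidizing enzyme Adh7, for example, had group means of 2.62 in WT, 9.22 in KEAP1-KO and 4.01 in DKO cells.

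**Figure D1:**
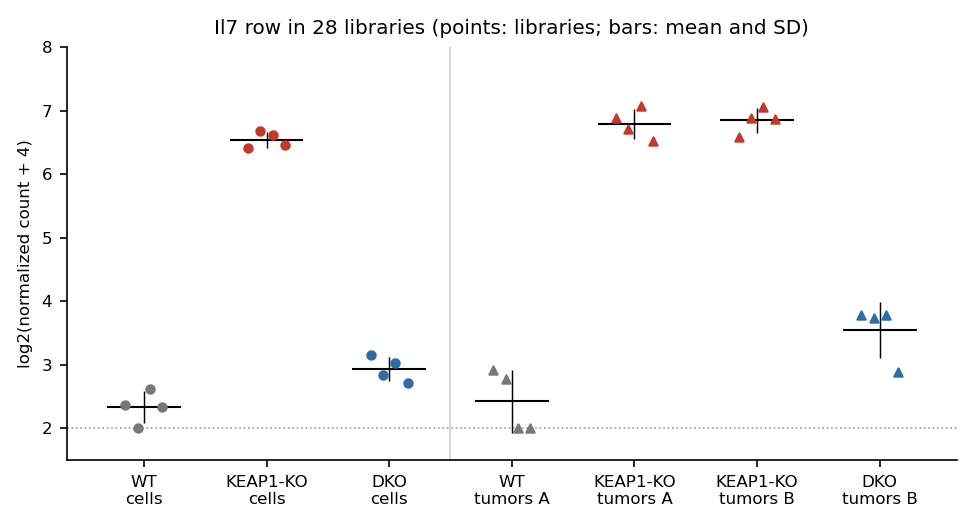
Level of the Il7-202 row, as log2(normalized count + 4), in each of the 28 libraries, with the mean and SD of each group of 4; the dotted line at 2 marks 0 reads. KEAP1-KO libraries sit between 6.41 and 7.07 in cells and tumors, and the WT and DKO libraries between 2.0 and 3.79.

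Il15, the ligand of the IL-2R beta and gamma chains, moved the other way and was nearly unread in culture. It had 0 to 2 reads in each WT and KEAP1-KO cell library, and 0 reads in all 4 DKO cell libraries. In the WT tumors Il15 stood at 4.82, 4.53, 4.59 and 5.28, with 20 to 41 reads. In the KEAP1-KO tumors of Experiment A it stood at 3.69, 3.60, 2.57 and 3.15, with 2 to 8 reads. No KEAP1-KO tumor reached the lowest WT tumor, and the difference was -1.55 ± 0.26 (SE, adjusted p = 7.16e-04, limma). The summed reads differed 4.3-fold (2.7 to 7.2, 110 against 22 reads). In Experiment B, KEAP1-KO tumors had 3.32, 3.83, 3.60 and 3.43 and DKO tumors 3.90, 3.49, 4.01 and 3.74. These groups overlapped, and the difference of 0.24 was not called (-0.32 to 0.80, adjusted p = 0.692, limma). DKO tumors of Experiment B stayed below the WT tumors of Experiment A by 1.02 ± 0.26 (SE, adjusted p = 0.0201, limma), without overlap, but the call was lost without WT tumor 4 (adjusted p = 0.0682) or DKO tumor 2 (0.0607, limma).

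Most receptor chains fell in KEAP1-KO tumors, opposite in direction to Il7. Between KEAP1-KO and WT tumors of Experiment A, 6 of the 9 member rows were called lower, 1 (Il7) higher and 2 (Il15ra and Il4ra) not called, where 7.49% of all 34215 rows tested were called lower and 5.61% higher. The median difference over the 9 rows was -1.52, against -0.03 over all rows. Il7 passed the filter on low rows only with the KEAP1-KO tumors, and Il7r and Il21r only with the WT or DKO tumors. The count of called members therefore depends in part on that filter. Il7r and Il2rb had been picked by the study from these same tumors, so their fall is not independent evidence. In these bulk samples fewer cells of a type and less RNA per cell cannot be told apart.

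Il7r, the IL-7-binding chain (ENSMUSG00000003882), had 0 reads in all 12 cell libraries. The WT tumors had 5.32, 4.70, 4.22 and 5.0, or 40, 23, 16 and 33 reads. The 4 KEAP1-KO tumors beside them had 2.87, 3.29, 3.14 and 2.31, or 3, 5, 5 and 1 reads. Every KEAP1-KO tumor was below every WT tumor, and the difference was -1.90 ± 0.41 (SE, adjusted p = 0.00463, limma). The summed reads were 6.9-fold higher in WT tumors (3.9 to 13.0, 112 against 14 reads). In Experiment B, KEAP1-KO tumors had 2.32, 3.63, 2.33 and 3.70 and DKO tumors 3.54, 5.08, 4.28 and 4.80. The lowest DKO tumor fell within the range of the KEAP1-KO tumors, of which 2 had 1 read and 2 had 8 or 9. The difference of 1.43 ± 0.41 (SE) was called (adjusted p = 0.0382, limma), but this call was lost in 5 of 8 fits that left out a tumor (KEAP1-KO tumors 1 or 3, DKO tumors 2, 3 or 4; adjusted p 0.0666 to 0.116, limma), with no filter on low rows (0.0533) and with only the compared groups in the fit (0.0885).

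Il2rg encodes the shared gamma chain. Its row was a coding transcript (ENSMUST00000135038), with 0 to 4 reads in each cell library. The 4 WT tumors stood at 7.25, 7.15, 6.93 and 6.68, or 116 to 165 reads. The KEAP1-KO tumors of Experiment A stood at 5.27, 5.18, 5.17 and 4.97, or 28 to 33 reads. The difference was -1.86 ± 0.15 (SE, adjusted p = 4.97e-07, limma), and no tumors of the 2 groups overlapped. In Experiment B, KEAP1-KO tumors stood at 5.95, 6.11, 5.75 and 5.95 and DKO tumors at 6.60, 6.95, 6.93 and 6.42. All 4 DKO tumors were above all 4 KEAP1-KO tumors, by 0.79 ± 0.15 (SE, adjusted p = 0.00292, limma), or 1.8-fold in summed reads (1.5 to 2.1, 443 against 228 reads). DKO and WT tumors differed by -0.28 (-0.60 to 0.04, adjusted p = 0.296, limma).

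The KEAP1-KO tumors of the 2 experiments differ also in flank, right in A and left in B, and in the tumor on the other flank, WT or DKO. For Il2rg those of Experiment B were above those of Experiment A by 0.79 ± 0.15 (SE), without overlap, at an adjusted p of 0.0505 by limma that fell on either side of the threshold with the setting (0.0285 to 0.136). None of the 9 member rows was called between these 2 groups, while 3 of them, Il2rg, Il2ra and Il21r, had an unadjusted p under 0.05 (8.41e-05, 0.00367 and 0.0309, limma). Only 0.152% of all rows were called higher and 0.0117% lower there, so a count of 0 is what the whole table gives. The summed level of 7 pan-leukocyte markers moved in the same direction, from 656.8 to 735.9 normalized counts in the KEAP1-KO tumors of Experiment A to 1076.4 to 1424.0 in those of Experiment B, and 5 of 10 macrophage and monocyte markers were called higher there. No marker of the other lists was called there by limma. Medians were -0.42 for neutrophil, -0.29 for B cell, -0.06 for T cell and 0.00 for NK cell markers. Those of dendritic cell, endothelial, fibroblast, and mast cell and basophil markers were 0.07, 0.21, 0.46 and 0.88. The part of these cell types in the Il2rg difference was not tested.

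Il2rb, the beta chain shared by the IL-2 and IL-15 receptors (ENSMUSG00000068227), had 0 reads in WT and DKO cells and 1 to 3 in each library of KEAP1-KO cells. In the WT tumors it stood at 5.41, 5.64, 5.01 and 4.27, or 43, 48, 31 and 18 reads. In the KEAP1-KO tumors of Experiment A it stood at 2.0, 2.0, 3.43 and 3.67, or 0, 0, 7 and 9 reads. The groups were apart, with a difference of -2.31 ± 0.49 (SE, adjusted p = 0.00421, limma) and a 7.5-fold difference in summed reads (4.5 to 13.6, 140 against 16 reads). In Experiment B the KEAP1-KO tumors had 2.81, 3.92, 2.59 and 3.94 and the DKO tumors 3.79, 4.90, 5.50 and 4.34. The lowest DKO tumor lay under 2 of the KEAP1-KO tumors, and the difference of 1.32 was not called (0.28 to 2.35, adjusted p = 0.12, limma).

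Il2ra, the alpha chain that raises the affinity for IL-2 and marks regulatory and activated T cells (ENSMUSG00000026770), had low reads in culture, with means of 2.64 in WT, 2.64 in KEAP1-KO and 2.49 in DKO cells. WT tumors had 4.68, 4.98, 4.42 and 4.33 (19 to 29 reads), and KEAP1-KO tumors of Experiment A had 3.26, 3.29, 2.79 and 2.98 (3 to 5 reads). The groups did not overlap, and the difference was -1.52 ± 0.28 (SE, adjusted p = 0.00138, limma). In Experiment B the KEAP1-KO tumors had 3.70, 4.31, 4.19 and 3.94, within the spread of the DKO tumors at 3.90, 4.84, 4.34 and 3.44. That difference was 0.10 (-0.50 to 0.69, adjusted p = 0.901, limma).

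Il21r, the IL-21-binding chain (ENSMUSG00000030745), was unread in culture but for 1 read in 1 library of KEAP1-KO cells. WT tumors had 4.20, 4.27, 4.29 and 3.91 (13 to 17 reads), and KEAP1-KO tumors of Experiment A had 2.0, 2.66, 2.79 and 3.15 (0 to 5 reads). The groups were apart by -1.52 ± 0.26 (SE, adjusted p = 7.15e-04, limma). In Experiment B the KEAP1-KO tumors had 3.32, 3.63, 2.82 and 3.27 and the DKO tumors 4.0, 3.73, 3.60 and 3.65. A single DKO tumor overlapped with a single KEAP1-KO tumor, and the difference of 0.49 was not called (-0.06 to 1.03, adjusted p = 0.313, limma).

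In Experiment B as a whole, 3 of the 9 rows (Il2rg, Il7r and Il15ra) were called higher in the DKO tumors, 1 (Il7) lower and 5 not called, where 4.22% of all rows were called higher and 4.64% lower. The median difference over the 9 rows was 0.49, against 0.00 over all rows. The limit from the filter on low rows, given for Il7 and Il7r in Experiment A, holds here too. Between DKO tumors of Experiment B and WT tumors of Experiment A, Il7 was called higher, Il15 lower and the other 7 rows not, where 4.57% of all rows were called higher and 5.99% lower. In that comparison 1 of 7 pan-leukocyte markers was called lower (median -0.33), Ptprc (-0.49, adjusted p = 0.0325, limma), and none of the 10 macrophage and monocyte markers was called by limma (median -0.17), 4 of them having an unadjusted p under 0.05. Called lower were 5 of 6 neutrophil markers (median -1.51) and 2 of 5 tested dendritic cell markers, while 3 of 6 fibroblast markers were called higher (median 0.69). The part of these cell types in the comparison was not tested. For Il7r and Il2rb the intervals of that last difference were wide, from -1.25 to 0.48 and from -1.49 to 0.58, so these tumors do not show that the levels were equal.

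**Figure D2:**
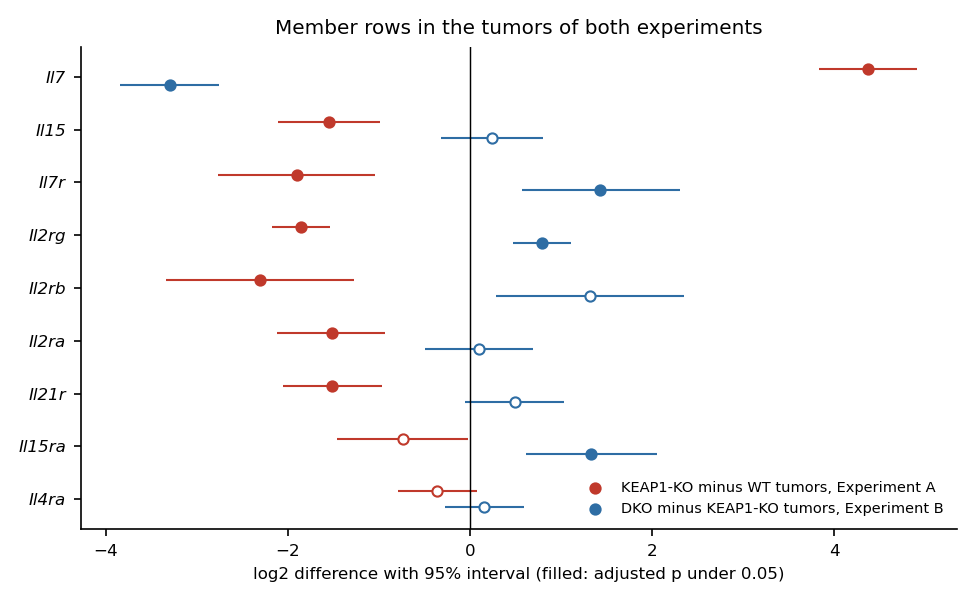
Log2 difference with its 95% interval (limma) for the 9 member rows, for KEAP1-KO minus WT in Experiment A and DKO minus KEAP1-KO in Experiment B. Il7 lies at 4.37 and -3.30, opposite in sign to the receptor rows Il7r (-1.90 and 1.43), Il2rg (-1.86 and 0.79) and Il2rb (-2.31 and 1.32).

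The 250 bases before the transcription start of Il7r, Il2rg and Il21r are shown as examples of chains that fell in the KEAP1-KO tumors. A STAT-type element (TTCNNNGAA, which reads the same on both strands) and the core of the antioxidant response element that NRF2 binds (TGACNNNGC, both strands) were searched for in 7 promoters of 6 members. They come from RefSeq on GRCm38.p6 and are printed 5′ to 3′ on the strand of the gene, with any STAT-type element in capitals.
Il7r (minus strand, chr15:9529877-9530126): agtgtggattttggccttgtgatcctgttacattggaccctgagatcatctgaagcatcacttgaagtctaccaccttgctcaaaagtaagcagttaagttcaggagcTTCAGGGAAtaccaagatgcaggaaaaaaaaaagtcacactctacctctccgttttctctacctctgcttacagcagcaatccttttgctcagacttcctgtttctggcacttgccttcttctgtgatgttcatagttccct
Il2rg (minus strand, chrX:101268256-101268505): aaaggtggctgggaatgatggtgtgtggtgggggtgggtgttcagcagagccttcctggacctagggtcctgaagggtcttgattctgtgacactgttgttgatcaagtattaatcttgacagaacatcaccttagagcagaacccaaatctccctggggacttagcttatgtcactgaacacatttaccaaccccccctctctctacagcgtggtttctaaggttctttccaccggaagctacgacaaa
Il21r (plus strand, chr7:125603179-125603428): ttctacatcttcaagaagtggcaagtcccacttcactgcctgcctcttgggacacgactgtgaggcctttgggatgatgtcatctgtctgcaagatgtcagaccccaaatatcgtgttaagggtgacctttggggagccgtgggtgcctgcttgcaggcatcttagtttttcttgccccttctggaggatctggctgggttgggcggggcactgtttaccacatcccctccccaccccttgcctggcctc
The STAT-type element TTCAGGGAA in the Il7r window begins 142 bases before the start, and neither Il2rg nor Il21r held these letters. The window of Il2ra, which also fell, held neither motif. Among 32851 promoter windows of the same length, 7.0% held TTCNNNGAA and 10.2% held TGACNNNGC. The antioxidant core was found in the windows of Il4ra, 60 bases before the start, and of the second Il15ra promoter, 32 bases before it. A match is a description of the letters and shows no binding. Il7, Il2rb, Il15 and Tslp were not in the promoter table.

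Il15ra, which presents IL-15 to neighbouring cells, was read in the cultured cancer cells, and its KEAP1-KO difference was positive in culture and negative in tumors. Its row was a processed transcript (ENSMUST00000091456). WT cells had 5.30, 4.95, 5.66 and 5.62 (25 to 43 reads), KEAP1-KO cells 6.89, 7.03, 6.71 and 6.40 (90 to 145 reads) and DKO cells 7.13, 6.46, 6.96 and 6.88 (80 to 139 reads). WT cells were below all libraries of both knockout lines, which overlapped with each other. KEAP1-KO cells were 1.38 ± 0.19 (SE) above WT cells (adjusted p = 3.17e-04, limma) and DKO cells 1.47 ± 0.19 above them (adjusted p = 1.58e-04, limma). DKO and KEAP1-KO cells differed by 0.10 (-0.32 to 0.52, adjusted p = 0.848, limma).

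Only Il7, Il15ra and Il4ra had enough reads for the test in culture, and Il15ra was the single called row of the 3 in KEAP1-KO against WT cells and in DKO against WT cells, where 8.13% and 8.46% of the 29744 rows tested were called higher. Il7 was left out of these calls, as it had been chosen on these cells. Between DKO and KEAP1-KO cells neither Il15ra nor Il4ra was called by limma, or had an unadjusted p under 0.05.

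In tumors Il15ra stood at 5.25, 6.02, 5.64 and 4.45 in WT and 4.29, 4.49, 5.20 and 4.43 in KEAP1-KO of Experiment A. These groups overlapped and the difference of -0.74 was not called (-1.46 to -0.02, adjusted p = 0.193, limma), although it was called without WT tumor 4 (-1.03, adjusted p = 0.0443, limma). In Experiment B the KEAP1-KO tumors had 4.52, 5.30, 5.02 and 4.61 and the DKO tumors 6.33, 5.95, 6.90 and 5.57. All DKO tumors were higher than all KEAP1-KO tumors, by 1.33 ± 0.34 (SE, adjusted p = 0.0208, limma). That call was lost without KEAP1-KO tumors 1 or 4 or DKO tumors 1 or 3 (adjusted p 0.057 to 0.0737, limma). Summed over all 7 rows of Il15ra, an alternative chosen after seeing the data, the differences were -0.69 and 1.22 in tumors (adjusted p = 0.0829 and 0.0054) and 1.39 and -0.06 in cells (adjusted p = 6.97e-08 and 0.729, limma).

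Il4ra, shared by the IL-4 and IL-13 receptors, was listed under its symbol as a retained intron (ENSMUST00000206681). The row had 3.28, 4.48, 4.34 and 4.33 in WT cells and means of 3.64 in KEAP1-KO and 3.05 in DKO cells. In tumors the group means lay between 5.84 and 6.39, and no comparison between genotypes was called in tumors or cells (adjusted p 0.0894 to 0.759, limma). The nearest was DKO against WT cells (-1.05), which was called in 2 of 8 fits that left out a library (adjusted p down to 0.0362, limma). The other row of the gene, Il4ra-205, annotated for nonsense-mediated decay (ENSMUST00000206846), set DKO cells apart. Its levels were 7.64, 7.55, 7.58 and 7.30 in WT cells, 7.09, 7.35, 7.09 and 7.09 in KEAP1-KO cells and 5.85, 6.26, 6.31 and 6.14 in DKO cells. KEAP1-KO and WT cells overlapped and their difference of -0.36 was not called (adjusted p = 0.0574, limma). The DKO cells were the lowest, without overlap, by -1.01 ± 0.12 (SE) against KEAP1-KO cells (adjusted p = 1.08e-04, limma).

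Tumors held more of Il4ra-205 than cells, with 8.94, 9.26, 9.14 and 9.04 in WT tumors, means of 8.71 ± 0.05 and 8.80 ± 0.10 (SD, n = 4) in the KEAP1-KO tumors of Experiments A and B, and 8.44, 8.39, 8.65 and 8.37 in DKO tumors. KEAP1 loss went with a lower level in Experiment A (difference -0.38 ± 0.08, SE, adjusted p = 0.00536, limma) and lower again in DKO than in KEAP1-KO tumors (-0.34 ± 0.08, adjusted p = 0.0167, limma). Il2rg was higher in those same DKO tumors. With both rows summed, Il4ra was called lower in Experiment A (-0.38, adjusted p = 5.00e-04, limma), and in DKO against KEAP1-KO tumors changed sign from the symbol row, from 0.15 to -0.27 (adjusted p = 0.0103, limma). For the summed rows the effect of KEAP1 loss in tumors and in cells differed by 0.00 ± 0.12 (SE, adjusted p = 0.995, limma).

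**Figure D3:**
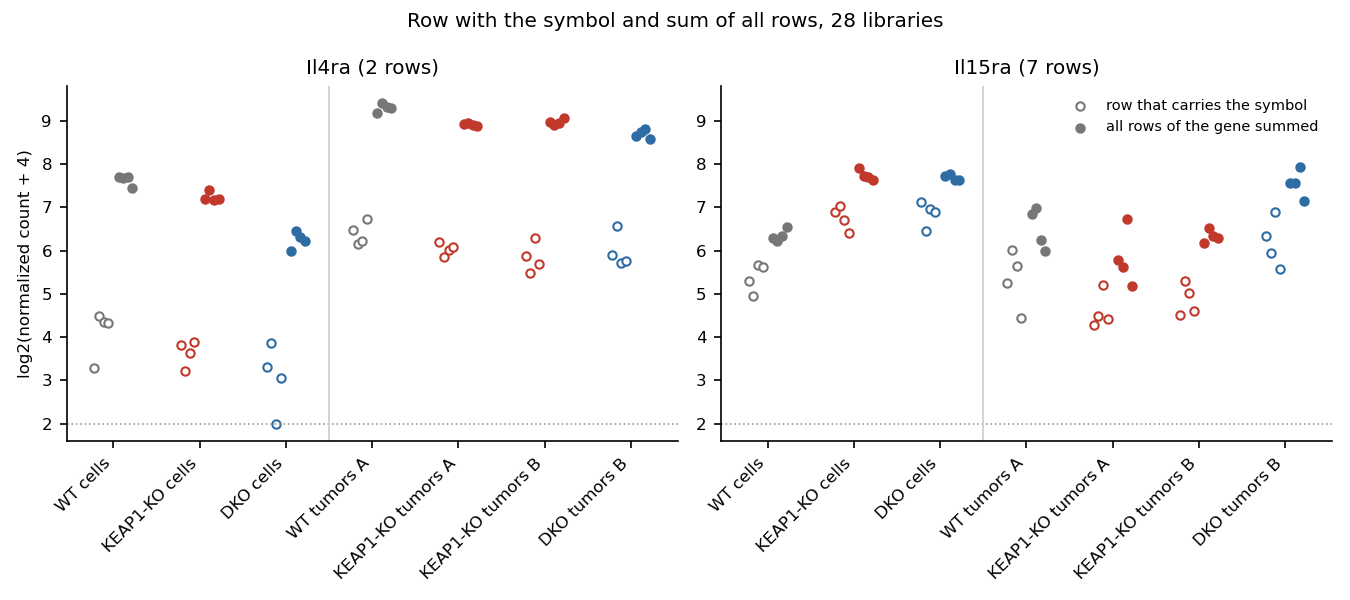
Il4ra (2 rows) and Il15ra (7 rows) in each library as log2(normalized count + 4), for the row that carries the symbol (open points) and for the sum of all rows of the gene (filled points), 4 libraries per group; the dotted line marks 0 reads. Summed Il4ra is lowest in DKO within cells and within tumors (means 6.24 and 8.70), and summed Il15ra is at 7.74 and 7.68 in KEAP1-KO and DKO cells against 6.34 in WT cells.

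Tumors were next set against the cells they grew from. WT tumors were called above WT cells in 7 of 9 rows, where 24.7% of the 37246 rows tested were called higher: Il2rg (4.85, adjusted p = 1.53e-16), Il2rb (3.08), Il7r (2.81, adjusted p = 8.61e-08), Il15 (2.48), Il4ra (2.28), Il21r (2.17) and Il2ra (1.96, all by limma). Of these, Il2rg, Il2rb, Il7r, Il15, Il21r and Il2ra had 0 to 4 reads in each WT cell library and passed the filter only through the tumors, so that their count was largely fixed by the filter and nothing is read from it against that share. Il4ra was read in the cells too. Il7 and Il15ra were the 2 that were not called, with differences of 0.09 and -0.04 (intervals -0.37 to 0.55 and -0.65 to 0.57).

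KEAP1-KO tumors were called above KEAP1-KO cells in 6 rows and below them in 1, against 27.0% and 16.9% of all rows, with the same limit on the rows near 0 reads in culture. The differences were 3.21 for Il2rg (adjusted p = 2.18e-14), 0.95 for Il7r (adjusted p = 0.00769), 1.05 for Il15, 0.91 for Il2ra, 0.88 for Il21r and 2.29 for Il4ra, all by limma. These values take the KEAP1-KO tumors of both experiments together, and for Il2ra the group means were 3.08 in Experiment A and 4.03 in Experiment B against 2.64 in cells. The Il7r call was lost when all libraries were set to 1 median (0.70, adjusted p = 0.0538, limma). The row that was lower was Il15ra, by -2.03 ± 0.26 (SE, adjusted p = 2.89e-07, limma). DKO tumors were called above DKO cells in 8 rows, all but Il15ra (-0.67, adjusted p = 0.0711, limma). Of all rows 27.6% were called higher there, and nothing is read from the members' count, which rests mostly on rows near 0 reads in culture and includes the unstable call of Il7. Scaling moved the median of all rows in these comparisons of tumors with cells from between 0.17 and 0.23 to between -0.19 and -0.08 where the medians were set equal.

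The effect of KEAP1 loss was then compared between tumors and cells as an interaction. It was called lower in tumors in 7 of 9 rows, where 3.88% of all rows were. These were Il2rb (-2.72, adjusted p = 0.00258), Il15ra (-2.11 ± 0.42, SE, adjusted p = 0.00174), Il2rg (-2.04, adjusted p = 1.33e-05), Il7r (-1.90, adjusted p = 0.0118), Il21r (-1.59, adjusted p = 7.70e-04), Il15 (-1.57, adjusted p = 0.00299) and Il2ra (-1.52, adjusted p = 0.0135, all by limma). For Il7 the effect in tumors and in cells differed by 0.16 (-0.49 to 0.81, adjusted p = 0.872, limma). Of the 7 rows, all but Il15ra were at or near 0 reads in culture, where no fall could have been measured, so that their interaction restates the difference between tumors (-1.90 in both for Il7r) and their count is no result about the members. For the effect of NRF2 deletion no row was called by limma, where 2.12% of all rows were called higher and 1.55% lower, while 3 (Il7r, Il2rb and Il15ra) had an unadjusted p under 0.05 (0.0048, 0.00493 and 0.00701), and Il7 differed by 0.30 (-0.35 to 0.96).

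**Figure D4:**
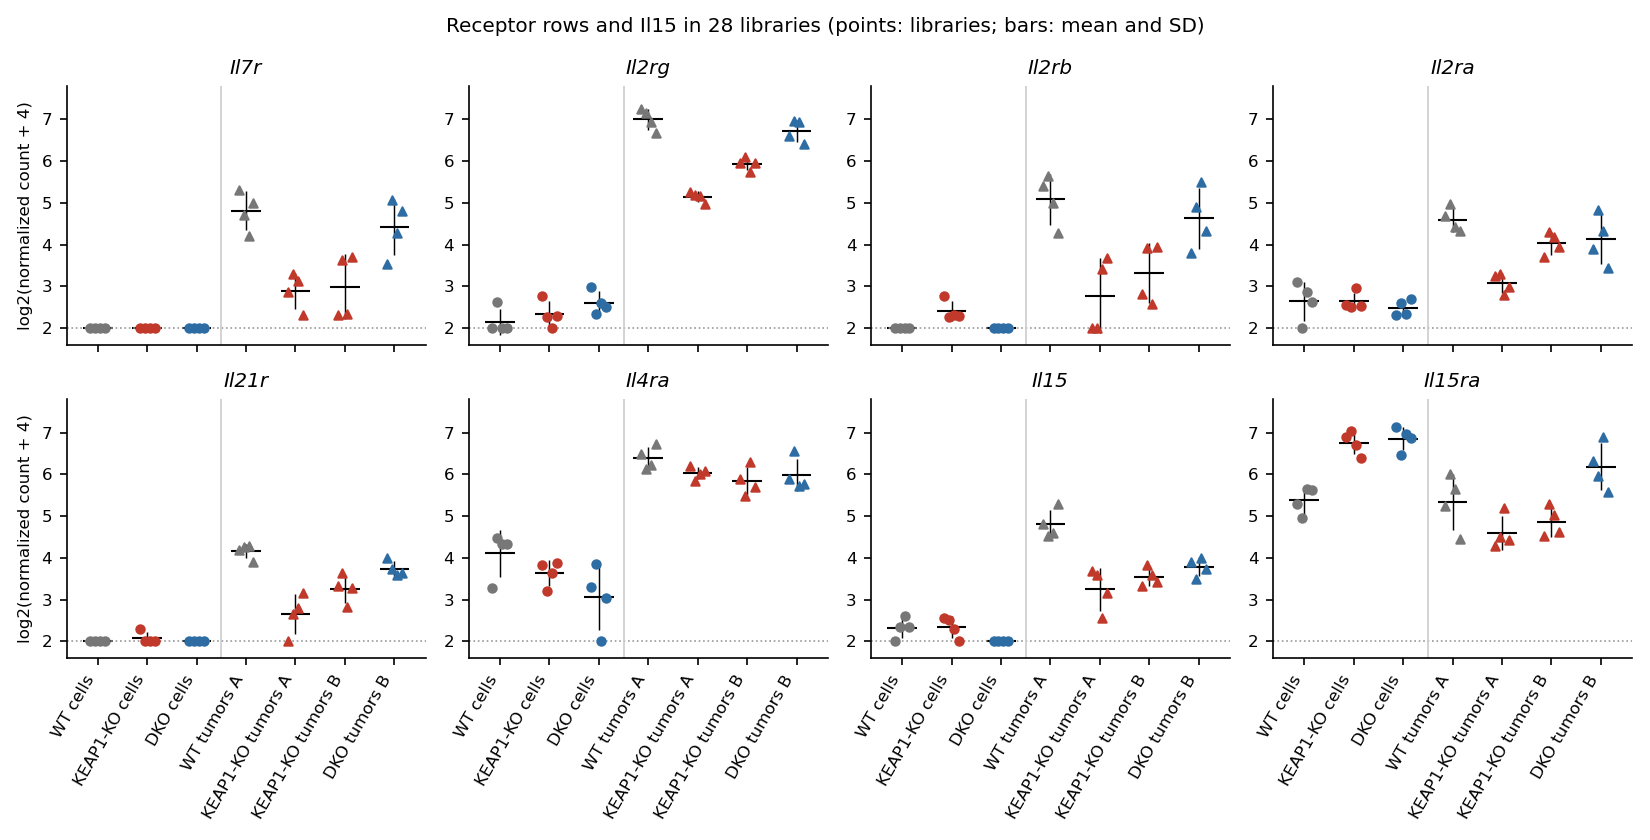
Levels of the other 8 member rows as log2(normalized count + 4) in each library of the 7 groups; the dotted line marks 0 reads. Il7r, Il2rb and Il21r lie at or near 2 in all cell libraries and are highest in WT tumors (means 4.81, 5.08 and 4.17), whereas Il15ra is read in cells and tumors alike.

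Markers of leukocytes and of other cell types moved with these rows. For the marker counts here and in the marker paragraphs that follow, 7.49% of all rows tested were called lower in Experiment A. In Experiment B 4.22% of all rows were called higher and 4.64% lower. In Experiment A all 7 pan-leukocyte markers were called lower in the KEAP1-KO tumors (median -2.32), with summed normalized counts of 656.8 to 735.9 against 2882.7 to 3625.5. In Experiment B all 7 were called higher in the DKO tumors (median 1.08), with 2005.6 to 3234.5 against 1076.4 to 1424.0, and the cells held 2.3 to 9.5. The difference of the Ptprc row, a retained intron of the gene of the leukocyte common antigen CD45, was -2.32 and 1.02 in the 2 experiments, beside -1.86 and 0.79 for Il2rg. The part of leukocyte content in the receptor differences was not tested.

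Myeloid cells and fibroblasts can also express Il15, Il15ra, Il4ra or Il2rg. All 10 macrophage and monocyte markers were called lower in KEAP1-KO tumors of Experiment A (median -1.78), with summed normalized counts of 2767.8 to 3263.7 against 6184.8 to 8711.9, and 6 of 10 were called higher in the DKO tumors of Experiment B (median 0.74), with 5999.0 to 8019.8 against 4367.2 to 5015.0. Of 6 neutrophil markers 5 were called lower in Experiment A (median -2.02) and 2 higher in Experiment B (median 0.96). Of 6 fibroblast markers 1 was called lower in Experiment A (median -1.45) and 3 higher in Experiment B (median 1.42), where their sum was 10359.2 to 14252.1 in DKO and 2412.0 to 3216.4 in KEAP1-KO tumors. The fibroblast sum thus moved in Experiment B with Il15ra, as did the sums of pan-leukocyte, macrophage and monocyte, and NK cell markers. Fibroblast markers were also read in culture, with sums of 383.6 to 467.4 in KEAP1-KO and 550.1 to 698.9 in DKO cells. The part of these cell types in the Il15ra difference was not tested. Of 5 tested dendritic cell markers 2 were called lower in Experiment A and 1 higher and 1 lower in Experiment B, and of 3 mast cell and basophil markers 2 were called lower in Experiment A and none in Experiment B. None of the 5 endothelial markers and not the single B cell row was called by limma in either experiment, and 1 of these, Emcn in Experiment B, had an unadjusted p under 0.05 (0.00566, limma).

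NK cells carry Il2rb and Il2rg and depend on IL-15. Of 9 NK cell markers 6 had a row and 4 were tested, and all 4 were called lower in KEAP1-KO tumors of Experiment A (median -1.95), among them Gzmb, which encodes granzyme B (-2.78, adjusted p = 6.82e-05, limma). Their summed normalized counts were 71.9 to 114.3 in WT tumors, 0.0 to 12.6 and 3.0 to 14 in the KEAP1-KO tumors of Experiments A and B, and 37.5 to 84.2 in DKO tumors. In Experiment B 3 of these 4 were called higher in DKO tumors (median 1.57), all but Gzma (0.94, adjusted p = 0.0856, limma). The NK receptor gene Ncr1 was at 2.0 in all 4 KEAP1-KO tumors of Experiment A.

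Of the T cell markers all 10 had a row, 4 were tested and 1 was called lower in KEAP1-KO tumors of Experiment A, Cd4 (-1.65, adjusted p = 0.00226, limma), while Cd8a differed by 0.39 (adjusted p = 0.453, limma). Summed normalized counts were 43.3 to 107.8 in WT tumors, 29.2 to 31.1 and 15.8 to 38.5 in KEAP1-KO tumors and 27.3 to 58.3 in DKO tumors, against 9.7 to 22.7 in cells. The defining markers Cd3e, Cd3d and Trac had too few reads to be tested, with means of 3.16, 2.75 and 2.89 in WT tumors and 2.09, 2.08 and 2.08 in KEAP1-KO tumors of Experiment A. None of the 4 tested markers was called in Experiment B by limma or had an unadjusted p under 0.05. Over the 16 tumors, the 5 rows most like Il7r by Pearson correlation among 16554 were H2-Q7 (r = 0.926), Icos (0.913), Clec7a (0.902), H2-Q10 (0.896) and H2-Q6 (0.895), again a description over groups of 4. Icos, a co-stimulatory receptor of activated T cells, had means of 4.18 in WT, 2.23 and 2.62 in KEAP1-KO and 3.80 in DKO tumors.

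**Figure D5:**
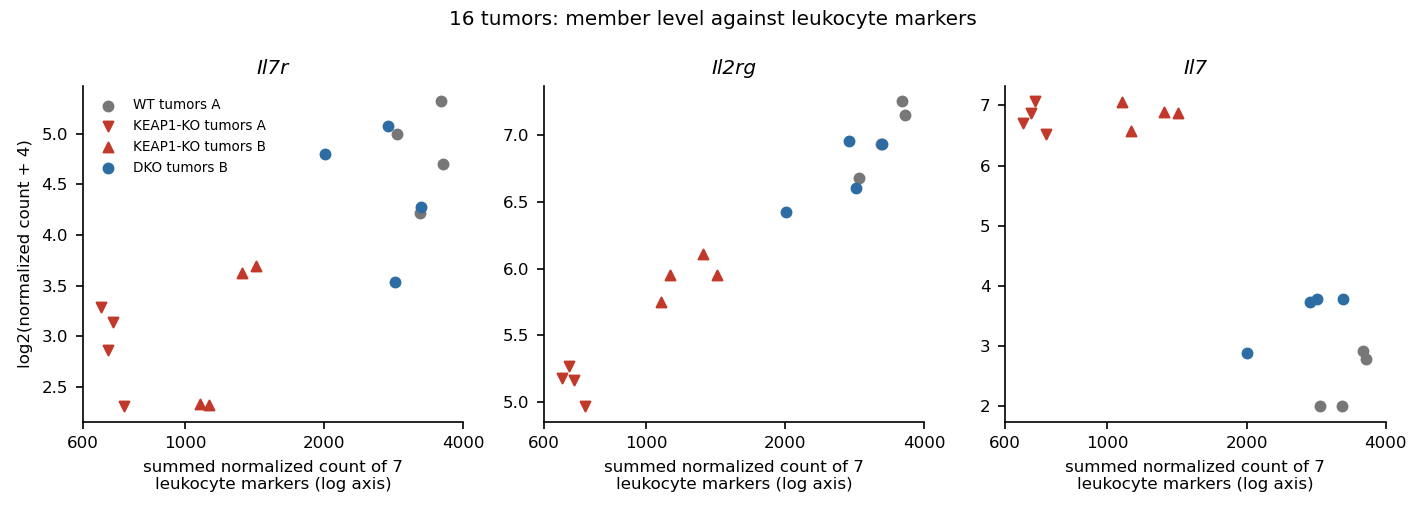
Levels of Il7r, Il2rg and Il7, as log2(normalized count + 4), against the summed normalized count of the 7 pan-leukocyte markers (log axis) in the 16 tumors, 1 point per tumor. Tumors of Experiment A with KEAP1-KO sit at 656.8 to 735.9 on the marker axis and WT tumors at 2882.7 to 3625.5, with Il2rg at 4.97 to 5.27 and 6.68 to 7.25.

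The wider pathway was read through 32 further genes, of which 26 had a row. None of the ligands Il2, Il4, Il9, Il13 and Il21 was among them. In KEAP1-KO against WT tumors of Experiment A, 7 of 23 tested rows were called lower, 2 higher and 14 not called, with a median of -0.39 against -0.03 over all rows, of which 7.49% were called lower and 5.61% higher. Feedback inhibitors that STAT signalling induces were among the lower rows: Cish (-1.90, adjusted p = 7.00e-04), Socs1 (-0.74, adjusted p = 0.00925) and Socs3 (-0.55, adjusted p = 0.0361, all by limma). So were the lymphocyte homing receptor Ccr7 (-1.63, adjusted p = 0.00159), the regulatory T cell factor Foxp3 (-1.65, adjusted p = 0.00467) and the TSLP receptor chain Crlf2 (-1.50, adjusted p = 8.30e-05, all by limma). The rows called higher were Gata3 (1.79, adjusted p = 0.00152) and the insulin receptor substrate Irs2 (0.51, adjusted p = 0.0207, limma).

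In DKO against KEAP1-KO tumors of Experiment B, 6 of 23 pathway rows were called higher, 2 lower and 15 not called (median 0.44, against 0.00 over all rows, of which 4.22% were called higher and 4.64% lower). Ccr7 (1.03, adjusted p = 0.0464), Crlf2 (0.69, adjusted p = 0.0427) and Socs1 (0.60, adjusted p = 0.0421) were higher, as were the survival gene Bcl2 (0.83, adjusted p = 9.64e-04) and Il13ra1, the other chain of the IL-4 and IL-13 receptor (0.57, adjusted p = 0.00477, all by limma). Gata3 (-2.20, adjusted p = 4.24e-04) and Myc (-0.78, adjusted p = 0.00633, limma) were lower.

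Some of these genes also moved in culture, where the 7 pan-leukocyte markers summed to 2.3 to 9.5 normalized counts. Some markers of other lists were read in the cells themselves, among them Cd68, called higher in KEAP1-KO than WT cells (2.38, adjusted p = 1.80e-05, limma), and Cxcr2 (0.98, adjusted p = 3.61e-04, limma). Gata3, known as a factor of IL-4-producing T cells and innate lymphoid cells, was 1.27 higher in KEAP1-KO than in WT cells and differed by -2.03 between DKO and KEAP1-KO cells, both called by limma. In KEAP1-KO against WT cells 4 of 15 tested rows were called higher (Gata3, Il13ra1, Klf2 and Socs2) and 2 lower (Socs1 and Bcl2), where 8.13% of all rows were called higher and 7.33% lower. In DKO against KEAP1-KO cells 3 were called higher (Klf2, Socs1 and Bcl2, by 0.46, 0.45 and 0.71) and 5 lower (Gata3, Il13ra1, Myc, Irs2 and Mcl1), where 3.98% of all rows were called higher and 4.85% lower. Foxp3 and Ccr7 had too few reads to be tested in culture.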

How the data were processed

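Total RNA of 12 cell and 16 tumor libraries was depleted of ribosomal RNA and sequenced by the authors as directional libraries. They quantified transcripts with Salmon on GENCODE mouse annotation. The deposited table holds 1 value per row and library on a log2 scale. The methods name TPM, but the deposited log2 values step in whole reads: in every library 100% of low values were whole within 0.1 read, so that they are log2 of a normalized count plus 4, and 2 stands for 0 reads. That normalization was made by the authors and was kept. Of the rows, 34021 carry transcript identifiers and 9122 gene identifiers, and 5 of the 9 member rows are gene rows and 4 transcript rows. The sum of a gene's deposited values may miss transcripts without a row. The labels' extraction protocol names liver tissue, whereas their sample fields name cells and subcutaneous tumors, and the latter were followed.

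Groups were taken from the labels. The deposited log2 values were fitted with limma 3.58.1 in R 4.3.3 with empirical Bayes moderation, across all 4 tumor groups, all 3 cell groups, or all 7 for tumors against cells and interactions. Rows with a normalized count of at least 5 in at least 4 libraries were tested (34215, 29744 and 37246 rows), and p-values were adjusted by Benjamini-Hochberg over all of them. The members were named in full, the pathway and marker genes by fixed lists, and the 5 rows most alike by Pearson correlation. A further gene, included in the pathway counts, is not reported here. Members and lists were chosen with earlier results of these data known. Reads were recovered from the values, and the intervals of read ratios are exact binomial intervals that cover counting error only. The figures and tables used Python 3.11.15, numpy 2.4.6, scipy 1.17.1, pandas 2.3.3 and matplotlib 3.10.9. The fits were tested on simulated data. Alternatives were a pseudocount of 1, no filter, only the compared groups, quantile scaling, equal medians, the replicate number as a block and leaving out each library. Summing all rows of a gene was added after seeing the data. Precision is set by depth: Il7r, Il2ra and Il21r rest on at most 40 reads per tumor.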

Additional observations from a re-analysis of the deposited data

Results flagged for a closer look

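In 6 of 55 groups of 4 libraries, a single library stood apart from the other 3 by most of the range of its group. Chance gives about 1 in 20 groups for continuous values, but most of the 6 groups found rest on 0 to 5 reads. There steps of whole reads make such gaps, so that the number found is not read against that rate. Il7 in the fourth DKO tumor of Experiment B was at 2.89 (4 reads), below the 3 others. The other 5 were in cells: Il2rg in a library of WT cells at 2.62 (2 reads), Il4ra in a library of WT cells at 3.28 (5 reads), and in KEAP1-KO cells Il2rb at 2.76 (3 reads), Il2ra at 2.96 and Il21r at 2.30 (1 read).

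The effect of KEAP1 loss differed between tumors and cells, by a test of the interaction (limma, 4 tumors and 4 cell libraries of each genotype), for 7 member rows. The differences were -2.72 for Il2rb, -2.11 for Il15ra, -2.04 for Il2rg, -1.90 for Il7r, -1.59 for Il21r, -1.57 for Il15 and -1.52 for Il2ra. All but Il15ra were at or near 0 reads in culture and passed the filter through the tumors, so that their interaction restates the difference between tumors. For Il15ra all 4 KEAP1-KO cell libraries were above all 4 WT cell libraries, while the KEAP1-KO and WT tumors of Experiment A overlapped and their difference of -0.74 was not called (adjusted p = 0.193, limma).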

How the results depend on the processing

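Counts here are of the 9 member rows called by limma in each comparison. KEAP1-KO against WT tumors gave 7 in the fit as reported and 7 to 8 when each library was left out, and Il7, Il7r, Il2rg, Il2rb, Il15, Il2ra and Il21r were called in each of these fits. With the rows of a gene summed it gave 8, Il4ra being added. DKO against KEAP1-KO tumors gave 4, 5 with summed rows (Il4ra added), and 2 to 4 when each tumor was left out, the calls lost being those of Il7r and Il15ra. Between the KEAP1-KO tumors of the 2 experiments, 1 row (Il2rg) was called with a pseudocount of 1 and 1 with the rows of a gene summed. DKO tumors against WT tumors gave 2, and 1 to 2 without single tumors, 1 with only the compared groups in the fit (Il7 no longer passed the filter) and 4 with summed rows (Il7, Il15, Il15ra and Il4ra). In cells, KEAP1-KO against WT gave 1, and 2 without a filter (Il2rb, 0.41, on 1 to 3 reads) or with summed rows (Il4ra added). DKO against KEAP1-KO cells gave 0, and 1 without a filter (Il2rb, -0.41) or with summed rows (Il4ra). DKO against WT cells gave 1, 1 to 2 without single libraries and 2 with summed rows (Il4ra added). The effect of NRF2 deletion in tumors minus cells gave 0, 0 to 2 without single libraries, and 4 with summed rows (Il7r, Il2rb, Il15ra and Il4ra). Il4ra in DKO against KEAP1-KO tumors reversed, from 0.15 to -0.27, when its 2 rows were summed. Outside the fits without a library, 602 single-member results stayed on their side of the threshold, 14 passed it, 6 fell short of it, 3 values without a test moved by more than 1 SD and 1 reversed. With a pseudocount of 1 the Il7 differences in cells were 5.54, -4.29 and 1.25. Il15ra in DKO tumors against DKO cells was called with quantile scaling (-0.82) and equal medians (-1.03). Where the cause of such a change is not named, it was not tested. Reads limit what can be said: rows with 0 to 5 reads per library cannot show a fall.

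With the replicate number as a block, 7, 4, 1, 0 and 1 member rows were called between KEAP1-KO and WT tumors, DKO and KEAP1-KO tumors, KEAP1-KO and WT cells, DKO and KEAP1-KO cells and DKO and WT cells, as without it. Deviations of same-numbered samples correlated at 0.01 to 0.20 and -0.18 to 0.16 in tumors and between -0.20 and 0.20 in cells, so the numbers were not taken as pairs.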
